A study of Mus musculus with 31 samples.

Results

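Messenger RNA of 40 cell cycle and DNA replication genes was followed across mouse livers with Myc, Mlx or both deleted, and across liver adenomas labelled as Mlx knockouts. The 40 genes were chosen by name as proliferation markers, cyclin-dependent kinases (CDKs), cyclins, E2F factors, replication proteins and mitotic regulators. All 40 were found among the 41549 genes of the 5-month table and among the 36333 genes of the old-liver table. Gene identifiers and gene spans printed below are those of the 5-month annotation. The old-liver annotation has other identifiers and, for some genes such as Cdk6, other ends. The rule used names and no measured value, though earlier results of these data were known when the list was drawn up.

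Myc drives growth and division genes as a transcription factor, and Mlx is the common partner of MondoA and ChREBP, transcription factors that respond to glucose. At 5 months there were 6 MycKO, 4 MlxKO, 5 DKO (both genes deleted) and 6 WT libraries, all from mice fasted for 14 h. The old set held 5 adenomas labelled MLXKO, from mice aged 14 to 17 months, and 5 WT livers aged 17 months, all not fasted. Per the labels tamoxifen went to every mouse, WT included, at 75 mg/kg on each of 5 days from an age of 28 days. The 5-month knockouts carried loxp alleles of Myc, Mlx or both with Cre-ERT2 inserted at the ROSA26 locus, which is active in most cell types. The adenoma mice carried Mlx loxp alleles with Alb_CreERT2, a Cre named for the albumin gene of hepatocytes. The WT mice were C57/B6 with no Cre named, so an effect of the deletion cannot be told apart from one of Cre or strain background. At 5 months the MycKO and WT groups each held 4 male and 2 female livers, and the MlxKO and DKO groups held none from females. By label 4 of the adenomas and 2 of the old WT livers were female. The labels do not state that each library came from a separate mouse, so the spread behind each p-value may be partly technical.

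A cell that re-enters the cycle first raises D cyclins, which with Cdk4 and Cdk6 release E2F factors from the retinoblastoma protein. E2F factors then drive the genes for E cyclins, the MCM helicase and the other replication proteins, and B-Myb (Mybl2) and Foxm1 drive the later wave of A and B cyclins and mitotic kinases. Adult hepatocytes rest outside the cycle and re-enter it after loss of liver mass. E2f7 and E2f8 are repressor E2Fs known in the liver, where they take part in making hepatocytes polyploid.

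Total counts per library were 18226467 to 28476797 at 5 months, 34590164 to 37087490 in the adenomas and 16036626 to 18690029 in old WT. Of the low counts (1 to 19), 81.0 to 83.1% were even in each adenoma, against 42.3 to 44.1% in each old WT liver, so the totals of the adenomas overstate how finely they were counted. Myc stood at 0.720 to 2.61 CPM (counts scaled to library size) in MycKO and 0.492 to 2.41 CPM in DKO, against 3.61 to 22.1 CPM in 5-month WT. In the adenomas Myc stood at 7.91 to 22.1 CPM, against 1.98 to 10.6 CPM in old WT, and its part in the levels below was not tested. Mlx stood at 15.7 to 20.8 CPM in MlxKO and 14.7 to 18.6 CPM in DKO, against 24.5 to 29.0 CPM in 5-month WT, and at 19.9 to 29.9 CPM in the adenomas, against 31.8 to 43.8 CPM in old WT, so most Mlx messenger was still counted in the livers and tumours labelled as knockouts. These counts are per gene and not per exon, so the extent of the deletion was not measured. The Xist count of adenoma 5 goes against its male label, and the sex term of the test follows the label. In all of these livers, fewer cells of a type and less RNA per cell cannot be told apart.

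Promoters were searched because many of these genes are textbook targets of E2F and of the DREAM complex. The motifs were the E2F core TTCGCGC or TTGGCGC, the cell cycle homology region TTTGAA (bound by DREAM and B-Myb) and the CCAAT box (bound by NF-Y), each on both strands. TTGGCGC read on the other strand ends in CCAA, so the E2F core and the CCAAT box can share letters. RefSeq promoters (GRCm38.p6) were read for 32 of the 40 genes over the 250 bases before each start, without Ccna2, Ccnd1, Ccnd2, Ccne2, Mcm4, Aurkb, Foxm1 and Cdc25c. An E2F core lay in the promoter of 8 of the 32 genes, namely Mki67, Cdk1, Ccnb1, E2f7, E2f8, Mcm5, Mcm6 and Cdc25a. Counted per promoter, since 3 genes have a second one, 22.9% of 35 promoters held an E2F core, against 3.14% of all 32851 promoters. TTTGAA lay in 28.6%, against 16% of all promoters, and a CCAAT box in 74.3%, against 33.8% of all promoters. The median GC content was 61.6% in these promoters and 52.4% in all promoters, and no test was made of the shares.

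Promoters are printed 5′ to 3′ on the gene's strand, motif matches in capitals, ending at the base before the RefSeq start, and other transcripts of a gene can start elsewhere. Cdk6 and Mcm6 are shown as the matched genes with the lowest p among those that rose in adenomas, E2f8 as the only one that fell, and Mki67, picked after its values were seen, as the proliferation marker. Cdk6 (chr5:3343789-3343892, plus strand) is shortened to the 104 bases outside annotated exons. The others are whole, Mcm6 at chr1:128359706-128359955, E2f8 at chr7:48881597-48881846 and Mki67 at chr7:135716380-135716629, all on the minus strand. Each E2F match of Mcm6 is a TTGGCGC overlapping a TTCGCGC read on the other strand. In E2f8 the E2F core overlaps a CCAAT box by 4 bases.
Cdk6: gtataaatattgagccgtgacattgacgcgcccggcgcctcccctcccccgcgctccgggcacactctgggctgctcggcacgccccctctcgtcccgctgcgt
Mcm6: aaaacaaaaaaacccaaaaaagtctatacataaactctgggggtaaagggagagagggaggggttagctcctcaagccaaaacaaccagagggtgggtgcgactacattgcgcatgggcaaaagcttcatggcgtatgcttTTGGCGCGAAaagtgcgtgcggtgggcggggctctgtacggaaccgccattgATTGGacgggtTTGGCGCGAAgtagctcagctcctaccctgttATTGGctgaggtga
E2f8: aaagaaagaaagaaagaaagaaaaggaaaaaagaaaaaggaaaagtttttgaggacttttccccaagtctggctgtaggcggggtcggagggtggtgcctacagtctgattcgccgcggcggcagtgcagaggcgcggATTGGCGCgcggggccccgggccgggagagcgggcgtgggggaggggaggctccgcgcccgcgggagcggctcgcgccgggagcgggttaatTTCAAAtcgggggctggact
Mki67: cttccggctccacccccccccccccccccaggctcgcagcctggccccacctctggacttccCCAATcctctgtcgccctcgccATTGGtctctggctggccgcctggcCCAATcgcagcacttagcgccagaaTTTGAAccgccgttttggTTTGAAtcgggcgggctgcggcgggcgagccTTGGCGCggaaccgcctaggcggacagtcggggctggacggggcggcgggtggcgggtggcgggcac
The Cdk6 window holds no capital, and its whole 250 bases hold none of the motifs. The Mcm6 promoter has E2F matches at 109 to 100 and at 46 to 37 bases before the start, the E2f8 promoter has one at 111 to 105, and the Mki67 promoter has one at 67 to 61. The TTTGAA matches of Mki67 lie 116 to 111 and 98 to 93 bases before the start, and the one of E2f8 lies 20 to 15 bases before it.

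The adenomas were compared with old WT liver to ask which cell cycle genes differ in these benign tumours. Every adenoma differed from every old WT liver in the share of even low counts. An effect of how the libraries were made or counted therefore cannot be told apart from one of tissue. The old set held no Mlx-deleted liver without a tumour, so tumour and Mlx loss cannot be told apart either. Of the 39 genes with enough counts to test, 8 rose in adenomas, 1 fell and 30 did not pass the threshold (edgeR quasi-likelihood test, Benjamini-Hochberg adjusted p under 0.05 over 13954 genes). That is 23.1% of the 39, against 16.4% of all genes tested. Those that rose were 20.5%, against 8.74% of all genes, and the 1 that fell was 2.56%, against 7.68% of all genes. The log2 fold change was positive for 36 of 39 genes with a median of 1.10, against a median of 0.04 over all genes. A gene can pass the low-count filter through the group where it is high. The sign count, the median and the count of rises can therefore lean upwards. Of the genes that rose, Aurkb had 15 counts over old WT, against 399 over the adenomas. Bub1, which also rose, had 18 counts over old WT, against 282 over the adenomas. The 8 that rose were Cdk6, Cdc25a, Mcm6, the mitotic regulators Aurkb, Bub1, Birc5 and Foxm1, and the marker Mki67. Only Cdk6, Mcm6 and Cdc25a were called when adenoma 5, whose Xist count goes against its male label, was entered as female. That was 3 of 39 (7.69%), near the 7.2% of all genes called in that fit. The calls below are from the fit with the label kept. E2f8 fell.

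**Figure D1:**
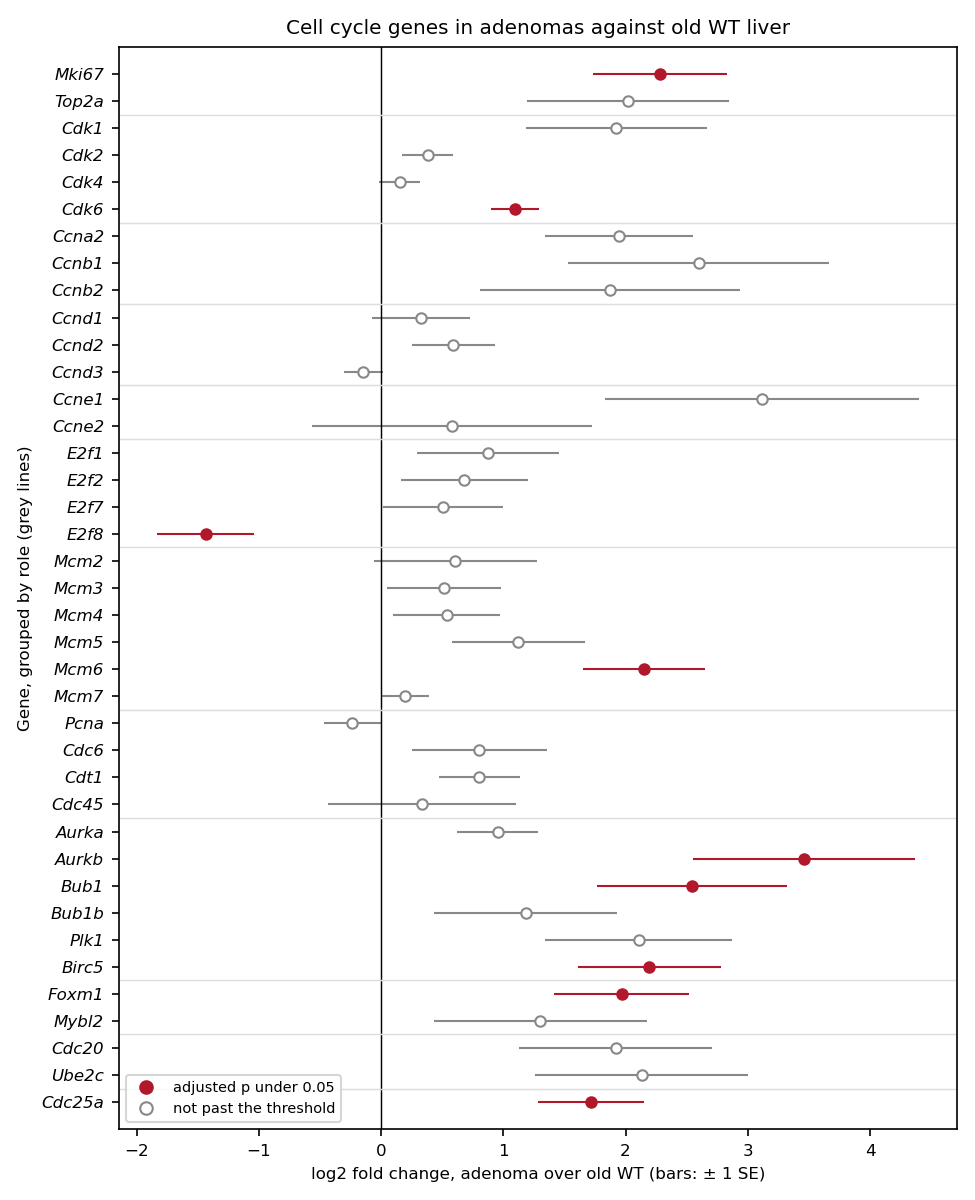
Log2 fold change of each tested gene in adenomas over old WT (x axis, bars ± 1 SE, n = 5 each), with genes grouped by role down the page and filled red where the adjusted p was under 0.05. The A and B cyclins, mitotic genes and APC/C genes lie right of 0 with wide bars, Ccnd1, Ccnd3, Pcna and Mcm7 lie near 0, and E2f8 alone passed the threshold on the left.

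Mki67 encodes the Ki-67 protein of cycling cells, the usual tissue marker of proliferation. The gene (ENSMUSG00000031004, chr7:135689784-135716361, minus strand) stood at 15.5, 16.8, 19.2, 2.20 and 12.0 CPM in adenomas 1 to 5, against 1.22, 2.78, 3.19, 1.67 and 3.60 CPM in old WT 1 to 5. Adenomas 1, 2, 3 and 5 lay above every old WT liver, and adenoma 4 lay inside the old WT range. The fitted log2 fold change was 2.28 ± 0.55 (SE, adjusted p = 0.020). Top2a, the DNA topoisomerase that untangles replicated chromosomes, stood at 8.29, 8.50, 14.3, 0.610 and 5.15 CPM in the adenomas, against 1.004, 0.868, 1.83, 2.61 and 3.82 CPM in old WT. Here too adenoma 4 was the exception, below all old WT livers, and the fold of 2.02 ± 0.83 did not pass (adjusted p = 0.11).

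Of the 4 CDKs, Cdk6 alone passed the threshold. Cdk6 (ENSMUSG00000040274, chr5:3341485-3531008, plus strand), partner of the D cyclins, stood at 55.8, 43.3, 48.3, 51.1 and 37.1 CPM in the adenomas, against 23.2, 20.5, 19.3, 17.1 and 28.6 CPM in old WT. All 5 adenomas, adenoma 4 included, exceeded all old WT livers. The log2 fold change was 1.10 ± 0.20 (adjusted p = 0.0056), and it passed the threshold in each fit that left out 1 library (highest adjusted p = 0.040). Cdk4, which pairs with the same cyclins, had a fold of 0.15 ± 0.17 and Cdk2, the partner of E and A cyclins, one of 0.38 ± 0.21, neither past the threshold. Cdk1, the mitotic kinase, stood at 4.66, 5.97, 6.15, 0.928 and 2.60 CPM in the adenomas, against 0.860, 0.463, 0.945, 1.54 and 2.79 CPM in old WT. Old WT 5 exceeded 2 of the adenomas, and the fold of 1.92 ± 0.74 had an adjusted p of 0.097.

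No cyclin passed the threshold in the fit with the label kept. Ccna2 (cyclin A2, of S phase and early mitosis) came closest, at 6.35, 5.87, 7.63, 0.901 and 5.39 CPM in the adenomas, against 0.860, 1.62, 0.886, 1.07 and 2.79 CPM in old WT (log2 fold change 1.95 ± 0.60, adjusted p = 0.0502). Ccnb1 (cyclin B1, the activator of Cdk1) stood at 2.79, 3.28, 7.13, 0.371 and 2.62 CPM in the adenomas, against 0.430, 0.405, 0.355, 0 and 1.98 CPM in old WT. The groups overlapped through adenoma 4 for Ccna2 and Ccnb1 alike, and the Ccnb1 fold was 2.60 ± 1.07 (adjusted p = 0.12). The E cyclins, which start S phase, had folds of 3.11 ± 1.28 for Ccne1 and 0.58 ± 1.14 for Ccne2.

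Ccnd1 (cyclin D1) stood at 56.5, 110, 96.7, 137 and 116 CPM in the adenomas, against 26.2, 110, 182, 38.9 and 39.9 CPM in old WT. The highest value of the set belonged to a female old WT liver, and the 2 female old WT livers (110 and 182 CPM) lay above the 3 male ones. The fold with the sex term was 0.33 ± 0.40 (adjusted p = 0.61), and it was −0.50 when adenoma 5 was entered as female. Ccnd2 and Ccnd3 had folds of 0.59 ± 0.34 and −0.14 ± 0.16.

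E2f8 (ENSMUSG00000046179, chr7:48866429-48881596, minus strand) was the member that fell. It stood at 3.01, 2.89, 4.69, 1.51 and 1.72 CPM in the adenomas, against 2.80, 8.16, 7.21, 4.69 and 8.30 CPM in old WT. Old WT 1 lay among the adenomas, old WT 4 lay level with the highest of them, adenoma 3, and the other old WT livers lay above. The log2 fold change was −1.44 ± 0.40 (adjusted p = 0.034). E2f7, the other repressor E2F, had a fold of 0.51 ± 0.49, and the activators E2f1 and E2f2 had 0.88 ± 0.58 and 0.68 ± 0.52, none past the threshold. E2f8 lost its call without adenoma 2, adenoma 5, old WT 2, old WT 3 or old WT 4, each in turn (highest adjusted p = 0.14).

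The MCM genes encode the 6 subunits of one replicative helicase, and 1 of the 6 passed the threshold. Mcm6 (ENSMUSG00000026355, chr1:128331590-128359664, minus strand) stood at 38.3, 21.8, 36.9, 8.46 and 16.6 CPM in the adenomas, against 3.01, 3.36, 6.20, 5.43 and 8.22 CPM in old WT. The groups did not overlap, though adenoma 4 lay just above old WT 5, and the log2 fold change was 2.15 ± 0.50 (adjusted p = 0.017). The other 5 subunits had folds of 0.20 (Mcm7) to 1.12 (Mcm5), none past the threshold. Mcm2 stood at 5.39, 6.19, 12.9, 0.663 and 5.75 CPM in the adenomas, against 5.66, 3.24, 3.01, 6.90 and 6.39 CPM in old WT, a full overlap (fold 0.61 ± 0.67). Whether the Mcm6 fold differs from those of the other subunits was not tested.

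Pcna, the sliding clamp of DNA polymerase, stood at 24.1, 23.7, 31.05, 14.1 and 22.7 CPM in the adenomas, against 22.7, 21.6, 30.1, 31.6 and 33.9 CPM in old WT. The groups overlapped, and the fold was −0.23 ± 0.24 (adjusted p = 0.53). Of the origin licensing and firing genes, Cdt1 had a fold of 0.80 ± 0.33, Cdc6 of 0.80 ± 0.55 and Cdc45 of 0.34 ± 0.77, none past the threshold.

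Mitotic kinases and checkpoint genes gave 3 of the 8 that rose. Aurkb, the kinase of the chromosomal passenger complex, stood at 1.74, 2.69, 2.73, 0.106 and 1.99 CPM in the adenomas, against 0.143, 0.0579, 0.177, 0.134 and 0.514 CPM in old WT. Its log2 fold change of 3.46 ± 0.91 (adjusted p = 0.028) was the largest of the 39, and adenoma 4 again lay inside the old WT range. Bub1, a spindle checkpoint kinase, stood at 0.936, 1.65, 2.12, 0.265 and 1.67 CPM in the adenomas, against 0.143, 0.0579, 0.414, 0.0670 and 0.514 CPM in old WT (fold 2.55 ± 0.78, adjusted p = 0.048). Birc5 (survivin, another passenger subunit) stood at 2.44, 4.50, 6.49, 1.41 and 4.37 CPM in the adenomas, against 2.29, 0.579, 0.709, 0.536 and 1.32 CPM in old WT (fold 2.19 ± 0.58, adjusted p = 0.029). For Bub1 and Birc5 it was again only adenoma 4 that reached down among the old WT livers. Aurka, Bub1b and Plk1 had folds of 0.95 to 2.11, and the APC/C genes Cdc20 and Ube2c had 1.92 ± 0.79 and 2.13 ± 0.87, none past the threshold.

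Foxm1, the transcription factor of the late wave, stood at 2.65, 3.08, 4.21, 0.848 and 2.60 CPM in the adenomas, against 0.717, 0.463, 0.709, 0.469 and 1.40 CPM in old WT. Its fold was 1.97 ± 0.55 (adjusted p = 0.035), while Mybl2 had 1.30 ± 0.87 and did not pass. Cdc25a, the phosphatase that activates Cdk2, stood at 22.5, 8.32, 9.06, 7.48 and 7.40 CPM in the adenomas, against 4.59, 2.60, 2.66, 4.15 and 3.38 CPM in old WT. All adenomas lay above all old WT livers, adenoma 1 far above the rest, and the fold was 1.72 ± 0.44 (adjusted p = 0.025). Cdk6, Mcm6 and Cdc25a were the 3 of 39 genes with no overlap and a higher level in adenomas (7.69%, against 8.97% of all genes), a share near the background. Cdc25c, the phosphatase of mitotic entry, was too low to test and had 116 counts over the adenomas, against 1 count over old WT. That is a ratio of 42.3 after scaling to library size (exact 95% interval 7.45 to 1686, counting error only, and too narrow for the mostly even adenoma counts).

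**Figure D2:**
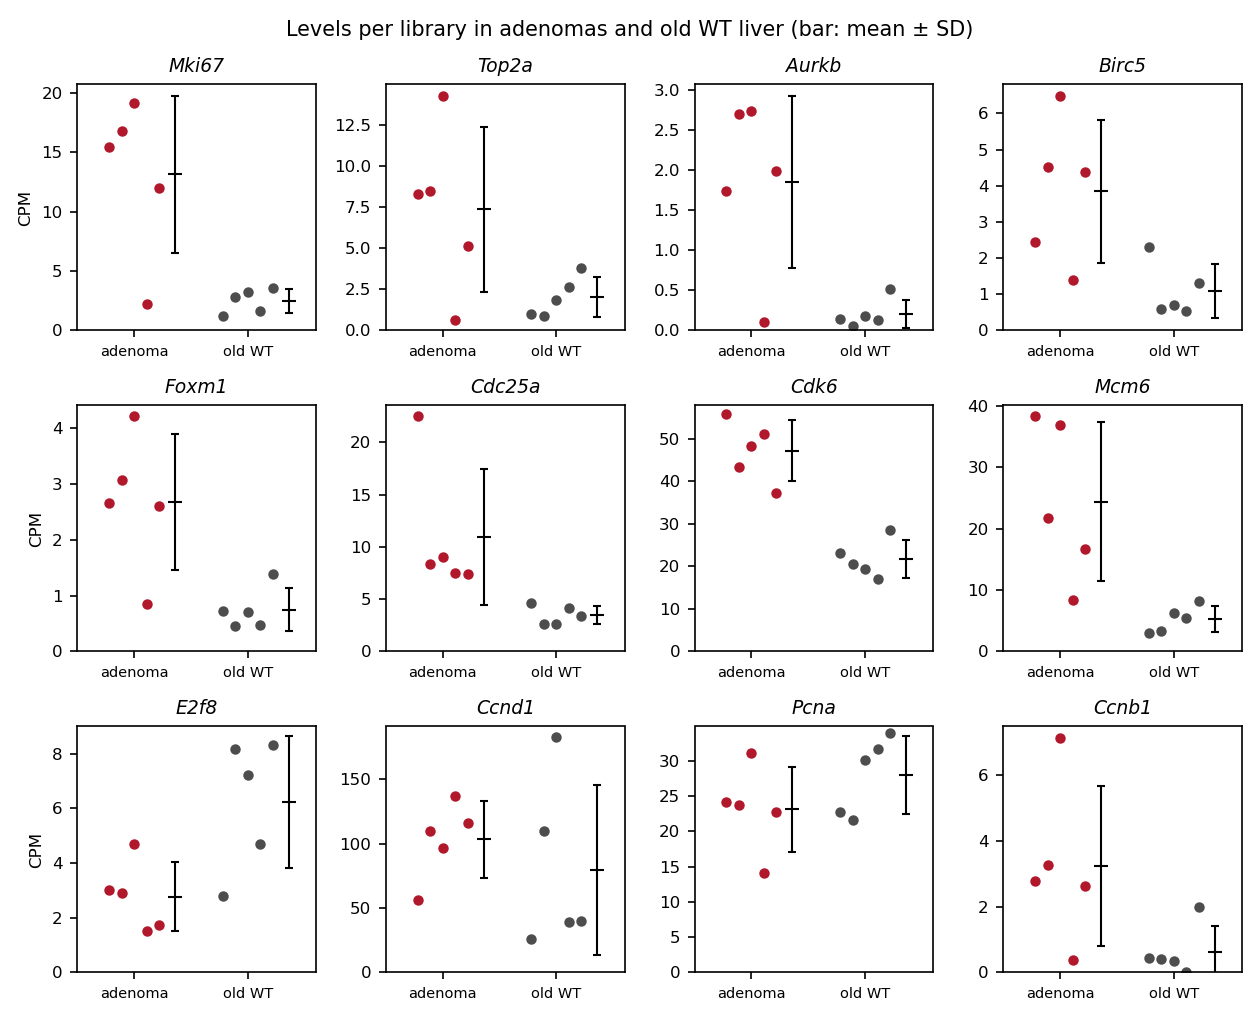
CPM per library (dots) of 12 genes in adenomas 1 to 5, left to right, and old WT 1 to 5, with the mean ± SD to the right of each group (n = 5 each). One adenoma, the fourth dot, falls to the old WT level for Mki67, Aurkb and Ccnb1 and below it for Top2a but stays at 51.1 CPM for Cdk6, and E2f8 is lower in most adenomas.

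The adenomas differed widely among themselves. The summed level of 16 late-cycle members (Mki67, Top2a, Cdk1, Ccna2, Ccnb1, Ccnb2, Aurka, Aurkb, Bub1, Bub1b, Plk1, Birc5, Foxm1, Mybl2, Cdc20 and Ube2c) was 70.3, 74.9, 104, 14.2 and 57.1 CPM in adenomas 1 to 5, against 13.9, 13.1, 16.1, 13.3 and 31.9 CPM in old WT 1 to 5. Adenoma 3 was the highest adenoma for 24 of the 39 tested genes and adenoma 4 the lowest for 26. Adenoma 4 lay within the old WT range for 21 genes, above it for 7 and below it for 11, while adenoma 3 lay above it for 29. Without adenoma 4, the count of genes called was 18 of 40 (45.0%, against 21.2% of all genes), among them Top2a, Cdk1 and Ccna2. The count was 5 of 37 without adenoma 2 (15.1% of all genes were called there) and 2 of 37 without adenoma 5 (5.35%). It was 2 of 40 without old WT 2 (4.79%) or without old WT 3 (5.47%), in both cases Cdk6 and Cdc25c. Mki67, Mcm6 and Birc5 lost their calls without adenoma 5, old WT 2 or old WT 3, and Cdc25a without old WT 2 or old WT 3. Foxm1 kept its call only without adenoma 1, adenoma 4 or old WT 5. Aurkb and Bub1 lost theirs without old WT 1, 2, 3 or 4 and could not be tested without adenoma 1, 2, 3 or 5. The count was 3 of 39 with adenoma 5 entered as female (Cdk6, Mcm6 and Cdc25a, 7.69%, near the 7.2% of all genes). It was 18 of 39 with DESeq2 (46.2%, against 25.1% of all genes). By the authors' deposited FDR p-values (under 0.05, test not named), 19 of the 40 were higher in tumour and 1, E2f8, was higher in old WT. The share of all genes was not computed for those values. Among the 19 were Top2a, Cdk1, Ccna2, Ccnb1, Ccnb2, Ccne1, Plk1, Cdc20 and Ube2c, none of which passed in the main fit.

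Neutrophil and cholangiocyte marker sums were also above every old WT liver in each adenoma but adenoma 4, though not in the order of the late-cycle sums. The sum of 9 neutrophil markers was 22.2, 98.4, 63.2, 3.95 and 38.1 CPM in adenomas 1 to 5, against 1.76 to 6.26 CPM in old WT, and all 4 that could be tested rose (S100a8, S100a9, Ngp and Retnlg). The sum of 6 cholangiocyte markers was 617, 632, 346, 56.0 and 510 CPM in the adenomas, against 47.7 to 61.7 CPM in old WT, with Spp1 and Sox9 of 6 passing. The 12 T and NK cell markers summed to 8.85 to 39.3 CPM in the adenomas, against 3.52 to 6.38 CPM in old WT, with 3 of the 9 testable ones passing. Kupffer cell and macrophage markers summed to 123 to 1420.5 CPM in the adenomas, against 133 to 404 CPM in old WT, with 1 of 8 passing, and Col1a1, Col3a1 and Acta2 of 8 stellate cell and fibroblast markers rose. Adenoma 4, with the lowest late-cycle sum, also had the lowest neutrophil, cholangiocyte and macrophage sums of the adenomas. The hepatocyte sum was 17547 to 35641 CPM in the adenomas, against 91559 to 140680 CPM in old WT, with Alb falling and no other of the 8 called. Of all genes tested in this comparison, 8.74% were called higher and 7.68% lower. Ly6g was at 0 in old WT, and Trbc1 and Trbc2 were at 0 in all libraries. The part of these cells in the late-cycle levels was not tested.

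**Figure D3:**
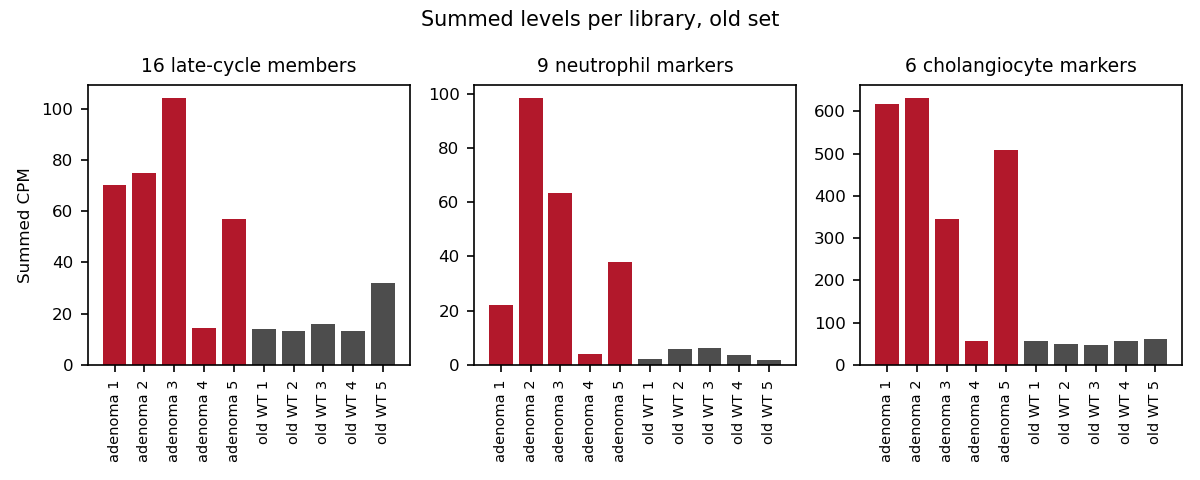
Summed CPM per library (bars from 0) of the 16 late-cycle members, of 9 neutrophil markers and of 6 cholangiocyte markers, adenomas in red and old WT in grey. Adenoma 4 stands at the old WT level in all 3 panels, at 14.2, 3.95 and 56.0 CPM.

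Genes around the members were read from lists of the same pathways. Of 45 further mitosis genes tested, 7 rose in adenomas (15.6%, against 8.74% of all genes) and none fell, with 39 of 45 positive and a median log2 fold change of 1.46. The low-count filter can admit a gene through the group where it is high, so these values can lean towards rises. At 5 months only 28 of the 50 listed mitosis genes passed the filter. Kntc1 (kinetochore, fold 2.80 ± 0.86), Espl1 (separase, 2.43 ± 0.71) and Ncapg (condensin, 2.40 ± 0.62) had the largest changes. Of 38 further replication genes, 3 rose (Lig1, the ligase of lagging strands, by 1.22 ± 0.29, with Wdhd1 and Pold3) and 2 fell (Pole3 by 1.34 ± 0.26, and Pold2), with a median of 0.25, and these shares (7.89% higher and 5.26% lower) lie near the 8.74% and 7.68% of all genes. Pkmyt1, the kinase that inhibits Cdk1, rose by 2.47 ± 0.35 (adjusted p = 0.0021), the 1 of 12 other CDK regulators called. E2f4 rose by 0.58 ± 0.17, the 1 of 14 Rb, E2F and DREAM genes called, and the shares of these 2 lists (8.33% and 7.14%) also lie near the background. None of the 7 CDK inhibitors or the 7 nucleotide supply genes passed the threshold.

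At 5 months the late-cycle genes were low in all 4 groups. Their 16-gene sum was 6.39 to 9.49 CPM in MycKO, 5.71 to 8.46 CPM in MlxKO, 4.10 to 11.6 CPM in DKO and 6.67 to 13.3 CPM in WT, so the 4 groups overlapped. Mki67 had only 7 to 39 counts per library. Aurkb, Bub1, Ccnb1, Cdc25c, Cdc6, E2f7, Mybl2 and Plk1 did not pass the low-count filter, which left 32 of the 40 to test. Cdc25c had 0 counts in MlxKO and in DKO, which allows up to 0.0364 CPM in MlxKO and 0.0279 CPM in DKO over the pooled libraries (3 counts, counting error only). On the length-scaled scale of the authors' TPM values, Cdk4 had the highest level in WT at 30.6 ± 3.88 (SD, n = 6), followed by Pcna at 19.6 ± 3.40, Ccnd3 at 13.0 ± 3.63 and Ccnd1 at 12.5 ± 9.0. Cdk4 and Pcna were the top 2 in MycKO, MlxKO and DKO as well, while Ccnd1 led in the adenomas at 65.6 ± 18.02 TPM, within its SD of Cdk4 at 64.9 ± 13.6 TPM.

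DKO livers were compared with WT to ask what differs when both genes are deleted. Of the 32 genes tested, 3 rose, 1 fell and 28 did not pass, and the 12.5% called is below the 18.5% of all 13397 genes. Those that rose were 9.38%, against 7.58% of all genes, and the 1 that fell was 3.12%, against 10.9% of all genes. DESeq2 also called 4 members, with 22.6% of all genes. The 3 that rose were E2f8, Cdk6 and Mcm4, and the 1 that fell was E2f2. The comparisons at 5 months share WT, DKO or MycKO libraries with each other.

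E2f8 had the lowest p of the members. It stood at 15.5, 10.2, 22.4, 15.5 and 21.6 CPM in DKO 1 to 5, against a lowest of 2.28, a median of 7.09 and a highest of 10.2 CPM in WT. It stood at 8.08 to 10.7 CPM in the 4 MlxKO livers and at 4.23 to 10.2 CPM in the 6 MycKO livers, with a MycKO median of 6.30 CPM. DKO 2 lay level with the top WT and MycKO livers and below 1 MlxKO liver, and the other DKO livers lay above every library of the other 3 groups. The log2 fold change was 1.47 ± 0.28 against WT (adjusted p = 0.0021) and 1.49 ± 0.29 against MycKO (adjusted p = 0.0039). Against WT, MlxKO had a fold of 0.60 ± 0.30 (adjusted p = 0.24) and MycKO one of −0.03 ± 0.26 (adjusted p = 0.99). DKO against MlxKO gave 0.87 ± 0.30 (adjusted p = 0.57), and the departure from additive deletions was 0.89 ± 0.39 (adjusted p = 0.9995). In both old-set and 5-month fits E2f8 was called, lower in adenomas against old WT and higher in DKO against WT; no test crosses the 2 sets. In the authors' deposited table, whose folds run first over second, the log2 fold change of E2f8 was −1.34 for WT over DKO and 1.16 for old WT over tumour.

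Cdk6 stood at 25.9, 20.9, 21.6, 27.7 and 22.7 CPM in DKO, against 8.24 to 22.1 CPM in WT (median 15.7). WT 2 lay among the DKO livers and the other WT livers lay below all of them (fold 0.62 ± 0.21, adjusted p = 0.045). Mcm4 stood at 3.89, 2.95, 4.08, 4.17 and 4.16 CPM in DKO, against 1.87 to 4.05 CPM in WT (median 2.85, fold 0.60 ± 0.21, adjusted p = 0.0499). WT 3 lay among the DKO livers, and the other WT livers lay below all of them. E2f2, an activator E2F abundant in blood cell precursors, stood at 0.219 to 0.441 CPM in DKO, against 0.288, 1.501, 0.190, 0.221, 0.878 and 1.41 CPM in WT 1 to 6 (fold −1.50 ± 0.46, adjusted p = 0.028). WT 2, WT 5 and WT 6 lay above every DKO liver, WT 1 and WT 4 lay among them, and WT 3 lay below them all.

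The 3 calls other than E2f8 did not hold throughout. E2f8 passed in all 11 fits that left out 1 DKO or WT library (highest adjusted p = 0.0076), while Cdk6 lost its call in 9 of them, Mcm4 in 7 and E2f2 in 5. The count of genes called was 1 without DKO 1 or DKO 5, and it was 2 without DKO 3, DKO 4, WT 1, WT 2, WT 4 or WT 6, with 9.11 to 23.9% of all genes called in those 8 fits. Without DKO 3 the called genes were E2f8 and Cdk1, and Cdk1 was not called with all libraries. Within males it was 2 of 31 (E2f8 and E2f2, with 11.5% of all genes called).

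**Figure D4:**
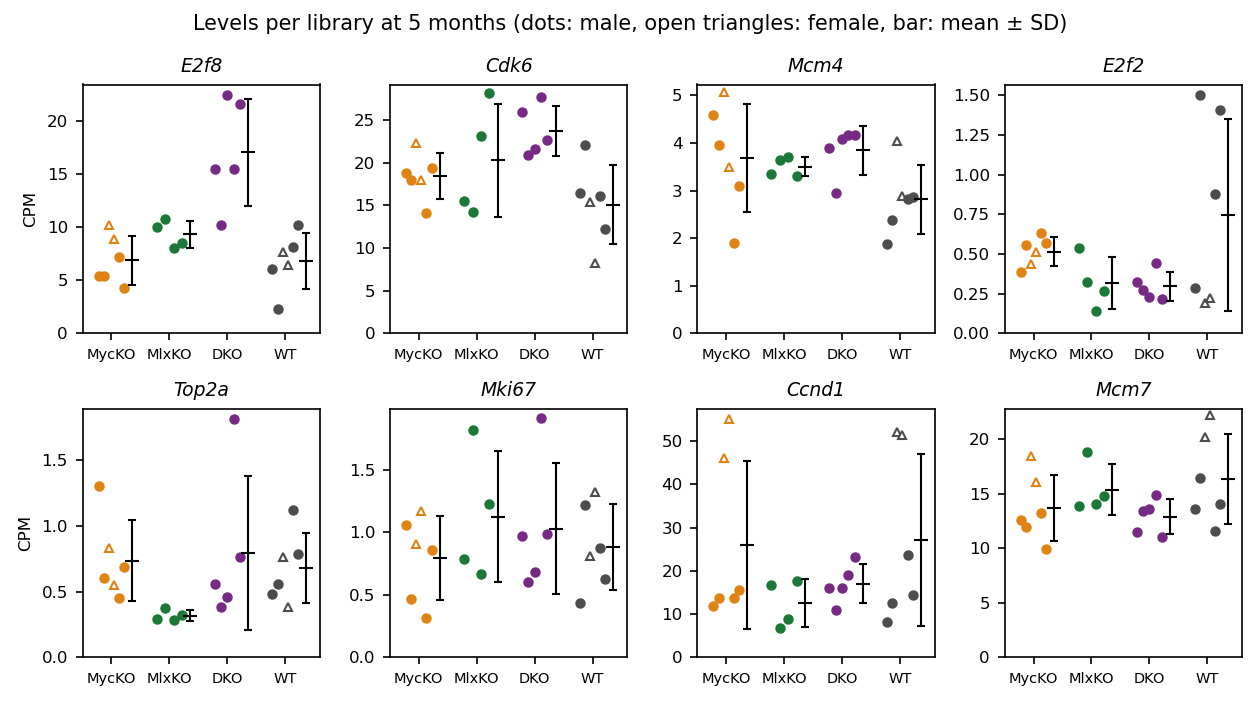
CPM per library at 5 months (filled dots male, open triangles female) of 8 genes in MycKO (n = 6), MlxKO (n = 4), DKO (n = 5) and WT (n = 6), with the mean ± SD at the right of each group. E2f8 lies at 10.2 to 22.4 CPM in DKO, Top2a lies at 0.285 to 0.374 CPM in MlxKO, and Ccnd1 is high in the 4 female livers only.

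The lists of the same pathways were read in DKO livers as well. Of 7 nucleotide supply genes, 3 fell in DKO against WT and none rose. These 42.9% compare with 10.9% of all genes called lower. Rrm2, the subunit that limits ribonucleotide reductase in S phase, stood at 0.880 to 1.44 CPM in the DKO livers, all male, against 2.097 to 6.91 CPM in the 4 male WT livers and 11.3 to 13.04 CPM in the 2 female ones. Rrm2 was itself higher in females (female over male fold 1.31 ± 0.31, adjusted p = 0.019). With the sex term the DKO livers were lower, and they overlapped neither sex of WT (fold −1.94 ± 0.37, adjusted p = 0.0022). Rrm2 was also lower in DKO than in MycKO (−2.14 ± 0.37, adjusted p = 0.0017) and in MlxKO than in WT (−1.65 ± 0.39, adjusted p = 0.038). Tk1 and Tyms, enzymes of thymidine nucleotide supply, had folds of −1.29 ± 0.42 and −0.60 ± 0.21 in DKO against WT. Of 37 further replication genes, 4 fell (Mcm10, Prim1, Rnaseh2a and Pold4, with the largest fold −1.35 ± 0.42 at Mcm10) and none rose, and this 10.8% is near the 10.9% of all genes called lower. Rb1, the retinoblastoma gene itself, rose by 0.67 ± 0.15 (adjusted p = 0.0057), the 1 of 14 in its list. This 7.14% is near the 7.58% of all genes called higher. Of 28 further mitosis genes, Ckap5 rose and Cks2 fell (3.57% each, below the 7.58% higher and 10.9% lower of all genes). Ccng2 rose among 11 other CDK regulators (9.09%, near the 7.58% of all genes), and no CDK inhibitor of 5 was called.

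Blood and macrophage markers moved in the same comparison, in which 10.9% of all genes were called lower and 7.58% higher. The erythroid sum was 184 to 548 CPM in DKO, against 257 to 2087 CPM in WT, and 5 of 7 erythroid markers fell. The Kupffer cell and macrophage sum was 95.8 to 189 CPM in DKO, against 120 to 350 CPM in WT, and 4 of 8 markers fell. Against MycKO, at 239 to 409 CPM, 6 of the 8 macrophage markers fell in DKO, as did 3 of 8 T and NK cell markers. There 11.9% of all genes were called in either direction. The T and NK cell sum was 4.52 to 9.32 CPM in MycKO, against 2.19 to 4.67 CPM in WT and 1.76 to 4.36 CPM in DKO, so WT and DKO overlapped. Against WT, 2 of 8 hepatocyte markers (Ttr and Hnf4a) fell in DKO, and 2 of 8 stellate cell markers (Lrat and Reln) rose. Of the T and NK cell markers 1 rose and 1 fell. Among 7 B and plasma cell markers 1 fell, and among 7 endothelial cell markers 1 rose. The part of these cells in the E2f2, Rrm2 and Tk1 values was not tested.

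In DKO against MycKO, where Mlx loss is added to Myc loss, 1 of 32 genes was called (3.12%, against 11.9% of all genes), as with DESeq2 (16.2% of all genes). It was E2f8, and it was also the 1 gene with no overlap and a higher level, DKO 2 lying just above MycKO 3 (3.12%, against 4.99% of all genes). The next lowest p-values were those of Cdk1 (0.328 to 0.978 CPM in DKO, against 0.657 to 1.17 CPM in MycKO, fold −0.82 ± 0.33, adjusted p = 0.0995) and E2f2 (fold −1.17 ± 0.48, adjusted p = 0.11). Without DKO 3 the count was 2, with Cdk1 added and 8.07% of all genes called. Cdkn2c, the 1 of 5 CDK inhibitors called (20%), fell by 0.62 ± 0.18. Rb1, E2f3 and Lin52 of the 14 genes in the Rb, E2F and DREAM list rose (21.4%), by 0.75 ± 0.15 for Rb1. Of 37 further replication genes 2 fell (5.41%), and of 7 nucleotide supply genes 1 fell (14.3%). Of 28 further mitosis genes 1 rose (3.57%), and of 11 other CDK regulators 1 rose (9.09%). These shares compare with the 11.9% of all genes called in either direction.

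Single deletions gave no call among the members. In MlxKO against WT 0 of 32 were called with edgeR (1.69% of all genes were), and DESeq2 called 0 (6.34% of all genes). An unadjusted p under 0.05 was found for 3 of 32 (9.38%), below the 22.1% of all genes. Those 3 were E2f2 (fold −1.38 ± 0.48, adjusted p = 0.12), Top2a (−1.17 ± 0.47, adjusted p = 0.16) and Mcm4 (0.47 ± 0.22, adjusted p = 0.22). Top2a stood at 0.290, 0.374, 0.285 and 0.320 CPM in MlxKO, against 0.387 to 1.12 CPM in WT. It was the 1 gene with no overlap and a lower level (3.12%, against 2.94% of all genes), with only 6 to 8 counts per MlxKO library. In DKO, where Mlx is deleted too, Top2a stood at 0.383 to 1.81 CPM. Top2a and Cdc6 lie 2.09 and 2.18 Mb from Mlx on chromosome 11, close enough to share flanking chromosome with the loxp allele, and an effect of that flank cannot be told apart from one of Mlx loss.

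In MycKO against WT 0 of 32 were called with edgeR (0.0896% of all genes were), and DESeq2 called 0 (0.552% of all genes). An unadjusted p under 0.05 was found for 1 of 32 (3.12%), below the 7.67% of all genes. It was Mcm7, at 9.95 to 18.4 CPM in MycKO, against 11.6 to 22.2 CPM in WT (fold −0.25 ± 0.11, adjusted p = 0.63), followed by Mcm4 (0.39 ± 0.19) and Cdk6 (0.30 ± 0.19). In DKO against MlxKO 0 were called (0.0373% of all genes were), and DESeq2 called 0 (0.351% of all genes). E2f8 and Top2a had an unadjusted p under 0.05 (2 of 32, 6.25%, near the 6.02% of all genes). The third lowest p was that of Cdk4 (fold −0.25 ± 0.13). Top2a (fold 1.30 ± 0.46) and Cdk2 (0.23 ± 0.23) had no overlap and a higher level in DKO (6.25%, against 1.89% of all genes). Mybl2, too low to test, had no overlap the other way, at 0.163 to 0.245 CPM in DKO, against 0.333 to 0.481 CPM in MlxKO. It had only 3 to 5 counts per DKO library and 7 to 9 per MlxKO library. The shares of all genes cover tested genes only, so none stands beside Mybl2. The departure from additive deletions was called with edgeR for 0 of 32, as for 0% of all genes, and with DESeq2 for 0 (0.0299% of all genes). E2f8 was the 1 member with an unadjusted p under 0.05 (3.12%, near the 3.5% of all genes), followed by Top2a (1.19 ± 0.59) and Ccnd1 (0.53 ± 0.37).

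Ccnd1 (ENSMUSG00000070348, chr7:144929931-144939925, minus strand) differed by sex at 5 months. The contrast was added after the values were seen, from the sex term of the 5-month fit. Ccnd1 stood at 46.2 and 55.1 CPM in the 2 female MycKO livers and at 52.2 and 51.4 CPM in the 2 female WT livers, against 6.73 to 23.7 CPM in the 17 male livers. All 4 females lay above all males, and the female over male log2 fold change was 1.85 ± 0.24 (adjusted p = 4.6e-05). Mcm7 stood at 16.03 to 22.2 CPM in females, against 9.95 to 18.8 CPM in males, an overlap, with a fold of 0.57 ± 0.12 (adjusted p = 0.0068). These were the 2 of 32 genes called (6.25%, against 3.48% of all genes), both higher in females (1.34% of all genes). MlxKO and DKO held no females, so the sex difference in those genotypes was not measured.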

How the data were processed

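RNA of 31 liver libraries was enriched with oligo(dT) beads and primed with random hexamers, per the labels' protocols. The authors deposited 1 table per age set with a total count per gene and library, TPM columns and, for their own comparisons, log2 fold changes and FDR p-values, per the file headers. Per the submitters' processing notes, reads were placed on GRCm38.p6; aligner, counter, strand setting and the authors' test were not given in the sources used here. The members, lists and tests were chosen with earlier results of these data known.

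The deposited counts entered edgeR 4.0.16 (R 4.3.3) unchanged: filterByExpr at a minimum count of 10, TMM, group means plus sex, glmQLFit and glmQLFTest, Benjamini-Hochberg over all genes tested. The 21 libraries at 5 months and the 10 old ones were fitted separately, with no test across them. CPM uses TMM-scaled library sizes. The common biological coefficient of variation was 0.261 and 0.385. No 2 replicates agreed within sampling noise. The scripts were tested on simulated data. Alternatives were DESeq2 1.42.0, its size factors, no filter, no sex term, 1 sex, 2 groups alone, halved adenoma counts, adenoma 5 as female, and libraries left out. Genes named by rule were every called member, the 3 of lowest p where fewer than 3 were called, and Mki67, Top2a, Cdk1, Ccna2, Ccnb1, Ccnd1, Mcm2 and Pcna. The 3 largest called changes per pathway list were named too. Cdk4, Mlx-linked Cdc6 and the range ends were added after their values were seen. Other members given with values, such as the further folds in adenomas against old WT, also lay outside this rule.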

Additional observations from a re-analysis of the deposited data

Results flagged for a closer look

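Of 105 pairs of a named gene and a group, 8 held a library that lay far from the rest of its group, by Dixon's test. Chance flags about 1 in 20 groups. Cdc25a stood at 22.5 CPM in adenoma 1, with the other adenomas at 7.40 to 9.06 CPM, and at 2.61 CPM in WT 2, with the other WT livers at 4.13 to 4.53 CPM. Old WT 5 had 1.98 CPM of Ccnb1, with the other old WT livers at 0 to 0.430 CPM, and 1.40 CPM of Foxm1, with the others at 0.463 to 0.717 CPM. Mcm4 stood at 2.95 CPM in DKO 2, with the other DKO livers at 3.89 to 4.17 CPM, and Top2a at 1.81 CPM in DKO 4, with the others at 0.383 to 0.766 CPM. Birc5 stood at 0.606 CPM in MycKO 2, with the others at 0.253 to 0.343 CPM. Mcm2 stood at 3.87 CPM in WT 6, with the other WT livers at 2.19 to 2.73 CPM.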

How the results depend on the processing

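No paired analysis was possible because the labels give the groups no shared replicate numbers. Of the values recomputed for named genes, 580 kept direction and side of the threshold, 78 lost their call, 15 gained one and 3 reversed. The 3 that reversed were the log2 fold changes of Ccnd1 in adenomas, −0.50 with adenoma 5 entered as female, −0.57 within females by label and −0.52 without adenoma 5, against 0.33 with all libraries as labelled and 0.77 at the highest with 1 library left out. Of the counts of members called, 115 stayed within 1.5 times and 23 did not. In adenomas against old WT the count of 9 was 18 with DESeq2, 3 with adenoma 5 entered as female, 1 (Cdk6, with 1.05% of all genes) within females by label, and 2 to 18 over the fits that left out 1 library. In DKO against WT the count of 4 was 2 within males, 2 without WT 2, WT 5 and MycKO 5 (9.75% of all genes), 1 in a fit of both groups alone (9.61%), and 1 to 4 with 1 library left out. In DKO against MycKO the count of 1 was 3 without WT 1, MycKO 1 and MycKO 2 (11.9% of all genes), 2 in a fit of both groups alone (16.6%), and 1 to 2 with 1 library left out. In MlxKO against WT the count of 0 was 1 (E2f2, with 4.86% of all genes) without WT 1, MycKO 1 and MycKO 2. The causes were not tested. Aurkb and Bub1 passed the low-count filter in 6 of 10 fits that left out 1 old-set library. At 5 months low counts limit the mitotic genes.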
